A study of Mus musculus with 6 samples.

Results

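The cholesterol synthesis and SREBP genes are 28 genes, 18 of which encode enzymes of sterol synthesis. The others are 5 genes of the SREBP factors and their control, the sterol carrier gene *Stard4*, and 4 fatty acid enzyme genes. They are a list of names. The rule that picks their rows used no measured value, although the list was drawn up with earlier results of these data known. All 28 were among the 24421 genes listed, and all 28 passed the filter of 0.5 CPM on average, as 15137 genes did. CPM here means read counts scaled to a common library size. RNA was sequenced from astrocytes of the hippocampus of C57BL/6 mice carrying Siglechdtr/dtr, in which the diphtheria toxin receptor sits at the *Siglech* locus, so that diphtheria toxin (DT) ablates microglia. In the PBS group, 3 libraries were made 2 days after PBS, and in the DT group, 3 libraries were made 2 days after DT at 50 µg/kg. Each library came from the pooled hippocampi of 2 mice, in 3 independent experiments, and astrocytes were taken with ACSA-2 beads after depletion of CD11b+ cells. Both groups carried the receptor, and mice without it given DT were not analysed here, so effects of DT and of the ablation cannot be told apart.

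The mevalonate enzymes make isoprenoid units from acetyl-CoA, the squalene enzymes join them and close the ring to lanosterol, and the post-lanosterol enzymes trim lanosterol to cholesterol. SREBP-2, encoded by *Srebf2*, drives the genes of this route, and SREBP-1, encoded by *Srebf1*, drives mainly fatty acid synthesis. When sterols are low, SCAP escorts SREBPs from the endoplasmic reticulum to the Golgi for cleavage, and INSIG proteins hold the complex back when sterols are plentiful. In the adult brain, astrocytes make cholesterol and pass it in lipoprotein particles to neurons.

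The libraries held 21704891 to 32933975 reads assigned to genes. *Siglech*, the locus of the receptor, had 21 to 71 reads per PBS library and 0 in every DT library. Of 8 astrocyte markers, including *Slc1a3*, *Aqp4* and *Gja1*, the summed level was 25800 to 26922 TPM (a level scaled by transcript length) in the PBS libraries and 28984 to 31145 TPM in the DT libraries. *Gfap* alone of these was called higher after DT (limma, Benjamini-Hochberg adjusted p = 8.20e-05). Among markers of other cells, 8 microglial markers summed to 150 to 186 TPM after PBS and 78.7 to 91.7 TPM after DT, with 5 of the 8 called lower, and border-associated macrophage markers to 12.9 to 22.3 TPM and 51.4 to 67.2 TPM, with 3 of 5 tested called higher. The 10 oligodendrocyte markers summed to 519 to 627 TPM after PBS and 424 to 518 TPM after DT, and 0 of the 10 were called. The sums of 3 further lists did not overlap between the groups. Oligodendrocyte precursor markers summed to 157 to 200 TPM after PBS and 118 to 150 TPM after DT, endothelial markers to 489 to 755 TPM and 411 to 480 TPM, and ependymal markers to 524 to 652 TPM and 700 to 1164 TPM, with 0 of 5 called in each. The 5 choroid plexus markers ranged from 104 to 2020 TPM over the PBS libraries and from 1246 to 3421 TPM over the DT libraries. No marker of these lists was at 0 in every library.

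The sequence before the start site is shown for 4 members, because the genes of this route are known as shared targets of SREBP, and SREBP is known to work with factors bound nearby at CCAAT boxes. RefSeq promoters on GRCm38.p6 matched 22 of the 28 members, each with 250 bases before and 50 bases after the start, and 1 gene can have several promoters. The sterol regulatory element was searched as TCACNCCAC, the E-box as CACGTG and the CCAAT box as CCAAT, each on both strands. Printed below are the 250 bases before the start on the gene's own strand, with these motifs in capitals and ATTGG marking a CCAAT box on the other strand. *Hmgcs1* is at chr13:119690101-119690350 on the plus strand and *Mvk* at chr5:114444019-114444268 on the plus strand. *Nsdhl* is at chrX:72918271-72918520 on the plus strand and *Fasn* at chr11:120824548-120824797 on the minus strand. All of these windows lie upstream of the annotated transcript.
Hmgcs1: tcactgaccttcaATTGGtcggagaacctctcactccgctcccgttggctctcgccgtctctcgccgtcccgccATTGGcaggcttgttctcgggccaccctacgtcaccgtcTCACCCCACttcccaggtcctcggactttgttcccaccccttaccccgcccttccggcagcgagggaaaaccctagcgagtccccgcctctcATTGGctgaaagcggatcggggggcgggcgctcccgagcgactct
Mvk: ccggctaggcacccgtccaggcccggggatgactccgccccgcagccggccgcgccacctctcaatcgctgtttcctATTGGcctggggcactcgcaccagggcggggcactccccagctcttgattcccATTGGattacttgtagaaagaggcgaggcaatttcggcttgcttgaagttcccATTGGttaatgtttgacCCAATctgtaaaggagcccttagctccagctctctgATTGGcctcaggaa
Nsdhl: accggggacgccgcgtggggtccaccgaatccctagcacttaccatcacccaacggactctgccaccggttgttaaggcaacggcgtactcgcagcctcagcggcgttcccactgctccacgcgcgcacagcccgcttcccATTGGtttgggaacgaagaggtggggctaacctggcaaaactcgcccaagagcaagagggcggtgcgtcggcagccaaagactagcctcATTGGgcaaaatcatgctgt
Fasn: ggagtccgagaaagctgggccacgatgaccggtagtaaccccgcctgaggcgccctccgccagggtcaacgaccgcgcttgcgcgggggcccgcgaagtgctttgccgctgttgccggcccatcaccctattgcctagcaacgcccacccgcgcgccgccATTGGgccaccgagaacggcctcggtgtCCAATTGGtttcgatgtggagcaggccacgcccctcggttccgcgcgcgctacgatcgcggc

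*Hmgcs1*, the first committed step towards mevalonate, held the 1 sterol regulatory element found among the 22 matched members, with its first base at position -137 from the start. That is 4.55% of the matched members, against 1.42% of the 11328 tested genes with a matched promoter. A CCAAT box was present in 19 of the 22 members, or 86.4%, against 42.4% of those tested genes. A gene was counted if any of its promoters had the motif. Counted by promoter, the CCAAT box was in 20 of 30 of the members' promoters, or 66.7%, against 37.4% of all 32851 promoters. *Mvk* carried 5 CCAAT boxes in the window shown, and in *Fasn* the run CCAATTGG is a pair of overlapping matches, 1 on each strand. The E-box was found in 5 of the 22 members (*Hsd17b7*, *Sc5d*, *Dhcr7*, *Scap* and *Insig1*), or 22.7% against 11.1%. The GC box, searched as GGGCGG on both strands and not marked above, was in 19 of the 22, or 86.4% against 66.8%. These are letter matches in a fixed window, with no measure of binding.

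Transcripts of all 28 genes were read in every library of both groups. Levels spanned from *Scd2*, at 1818 ± 69.7 TPM (SD, n = 3) after PBS, to *Stard4*, at 13.7 ± 0.79 TPM (SD, n = 3) after PBS. *Scd2*, a stearoyl-CoA desaturase that puts the double bond into saturated fatty acids, stood at percentile 99.8 of the genes tested by mean TPM. *Msmo1*, which removes a methyl group from the sterol ring, was next at 917 ± 122 TPM (SD, n = 3) and percentile 99.4. *Hmgcs1* followed at 358 ± 15.0 TPM (SD, n = 3) and percentile 97.8. The lowest sterol enzymes were *Hsd17b7*, at 22.0 ± 2.84 TPM, and *Ebp*, at 22.8 ± 2.48 TPM (SD, n = 3 each), whose ranges over the libraries overlapped. The transcripts of enzymes that act in the same run of steps thus differed widely, with *Lss*, the cyclase that makes lanosterol, at 35.9 ± 3.64 TPM and *Fdft1*, which makes squalene, at 247 ± 10.4 TPM (SD, n = 3 each). The 18 sterol enzymes summed to 2992, 2834 and 2697 TPM in the PBS libraries and to 2957, 2397 and 2581 TPM in the DT libraries. The groups overlapped in this sum, which was 0.285% of all TPM after PBS and 0.265% after DT.

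**Figure D1:**
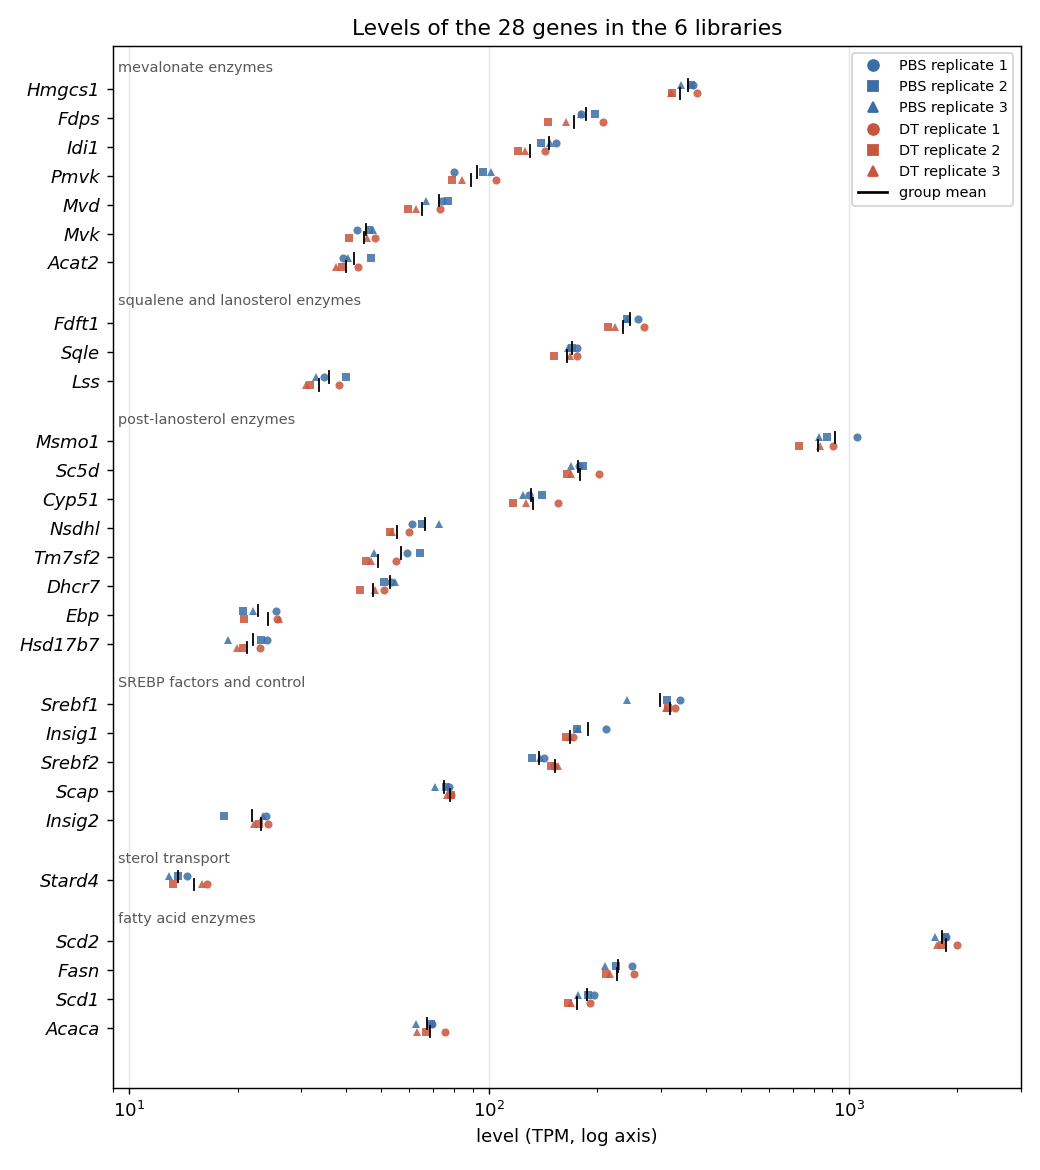
Level of each of the 28 genes in each library, in TPM on a log axis, grouped by role. Blue points are PBS libraries and red points DT libraries, the symbol gives the replicate number, and black ticks are group means. *Scd2*, *Msmo1* and *Hmgcs1* had the highest levels, and in 26 of the 28 genes the CPM of the groups overlapped.

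Whether ablation of microglia was followed by a change in these genes was compared between the 3 DT and the 3 PBS libraries with limma on log2(CPM + 0.1), over all 15137 genes tested. None of the 28 genes was called. At a Benjamini-Hochberg adjusted p under 0.05, 0 of 28 were higher after DT, where 0.555% of all genes tested were, and 0 of 28 were lower, where 0.159% were. At an unadjusted p under 0.05 in either direction there was 1 of 28 (*Nsdhl*), or 3.57%, where 10.4% of all genes were. The libraries of the groups did not overlap in 2 of 28 (*Nsdhl* and *Srebf2*), or 7.14%, where 16.3% of all genes did not. The log2 fold change was below 0 in 19 of 28, or 67.9%, where 51.3% of all genes were, and the median was -0.06 over the 28 genes and -0.01 over all genes tested. Without DT replicate 1 the median of the 28 genes was -0.15, without PBS replicate 3 it was -0.09, and without DT replicate 2 it was 0.004, on the other side of 0. edgeR's quasi-likelihood and exact tests and DESeq2 on the recovered reads also called 0 of the 28. In that order, they called 87, 191 and 227 of all 15137 genes higher and 24, 72 and 98 lower. Each had 1 of 28 at an unadjusted p under 0.05, or 3.57%, against 10.3%, 9.07% and 9.77% of all genes. Blocking on replicate number also called 0, with 6 of 28 at an unadjusted p under 0.05, or 21.4%, where 13.7% of all genes were. With TPM there were 3 (10.7% against 10.1%) and after quantile normalization 2 (7.14% against 10.9%). The 95% confidence intervals of the 28 genes all lay between 0.696-fold and 1.34-fold of the PBS level. In these bulk libraries, fewer cells of a type and less RNA per cell cannot be told apart.

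**Figure D2:**
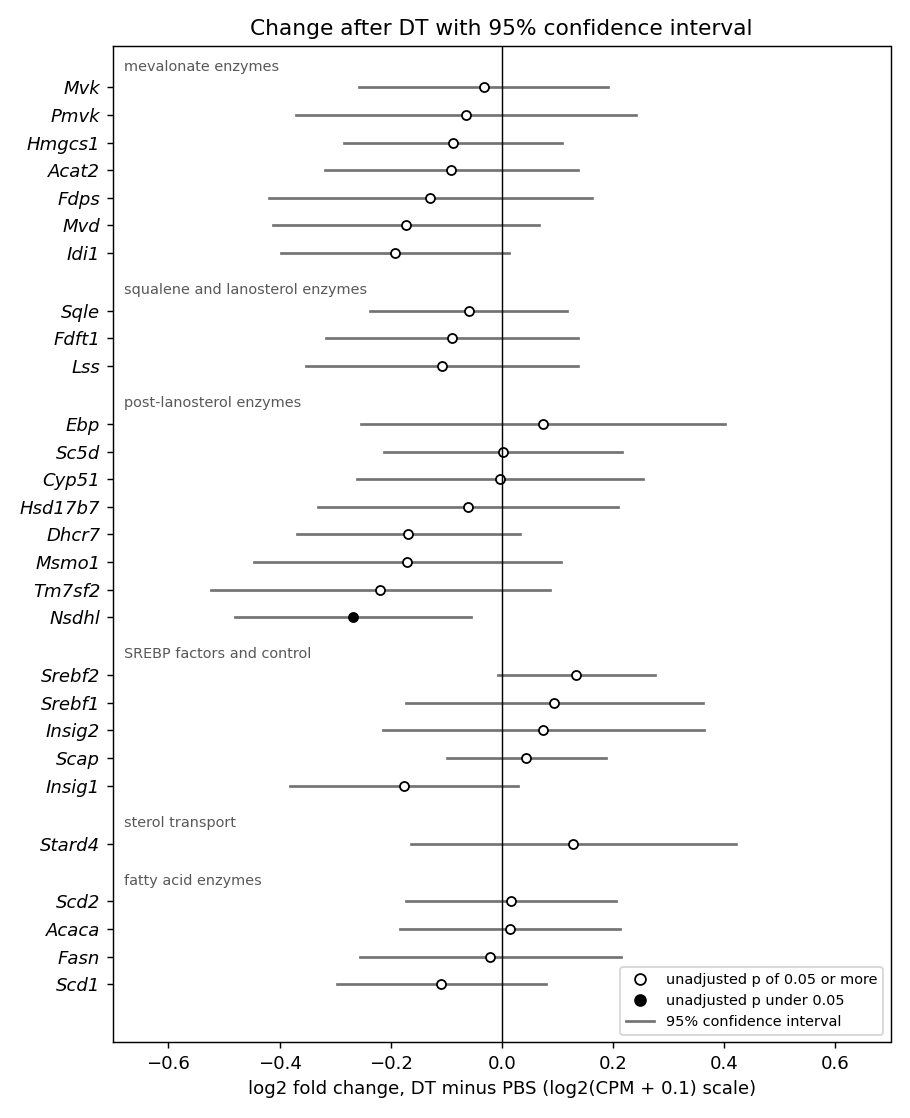
Log2 fold change of each gene, DT minus PBS on the log2(CPM + 0.1) scale, with its 95% confidence interval from limma (3 PBS and 3 DT libraries). The interval of *Nsdhl* alone leaves out 0, before adjustment for the genes tested, and the adjusted p of *Nsdhl* is 0.374.

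The 7 mevalonate enzymes all had a log2 fold change below 0, from -0.19 to -0.03, and 0 of 7 were called. *Hmgcs1*, on chromosome 13 of mm10 from 119690379 to 119708260, had the highest level of this group. It was at 454, 431 and 412 CPM in the PBS libraries and at 463, 380 and 382 CPM in the DT libraries, so that a DT library lay above all PBS libraries and the groups overlapped. Its log2 fold change was -0.09 (standard error 0.09, limma adjusted p = 0.774, Benjamini-Hochberg). The value furthest from 0 was that of *Idi1*, the isomerase of the isoprenoid units, at -0.19 (standard error 0.09, limma adjusted p = 0.511). *Mvk*, *Pmvk* and *Mvd*, which phosphorylate mevalonate and then remove its carboxyl group, had log2 fold changes of -0.03, -0.06 and -0.17. *Acat2*, the thiolase of the first step, had -0.09 and *Fdps*, which builds farnesyl pyrophosphate, -0.13. Of the 50-base stretches of the annotated transcripts, 64.1% in *Fdps*, 40.7% in *Acat2* and 20% in *Idi1* also occur in another gene, so their reads may have been divided and their values are uncertain.

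The squalene and lanosterol enzymes, *Fdft1*, *Sqle* and *Lss*, had log2 fold changes of -0.09, -0.06 and -0.11. *Fdft1*, the branch point towards sterols, was at 333, 300 and 304 CPM after PBS and at 344, 264 and 278 CPM after DT. Again the groups overlapped, with a DT library at the top and the others below the PBS range (limma adjusted p = 0.808, Benjamini-Hochberg). In *Fdft1*, 10.9% of the 50-base stretches are shared with another gene.

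Of the 8 post-lanosterol enzymes, 6 had a log2 fold change below 0 and 2 above, and 0 were called. *Nsdhl*, on chromosome X from 72918557 to 72958514, encodes the dehydrogenase that works with MSMO1 in taking methyl groups off the ring. It was at 47.1, 48.5 and 55.0 CPM in the PBS libraries and at 45.9, 39.1 and 40.0 CPM in the DT libraries. Every DT library lay below every PBS library, by 1.18 CPM at the closest. The log2 fold change was -0.27 (standard error 0.09, 95% confidence interval -0.48 to -0.06), which did not pass adjustment over all genes (limma adjusted p = 0.374, Benjamini-Hochberg). *Msmo1* was at 669, 533 and 512 CPM after PBS and at 571, 442 and 509 CPM after DT, and the groups overlapped. Its log2 fold change was -0.17 (standard error 0.12, limma adjusted p = 0.674). *Tm7sf2*, a sterol C14 reductase whose transcripts share 19.5% of their 50-base stretches with another gene, had -0.22, with an interval from -0.52 to 0.09. *Dhcr7*, the reductase of 7-dehydrocholesterol, had -0.17, and *Hsd17b7*, a ketosteroid reductase, -0.06. *Cyp51*, the lanosterol demethylase, and *Sc5d*, the C5 desaturase, were within 0.01 of 0, and *Ebp*, the sterol isomerase, had 0.07.

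The SREBP factors and their control genes had 4 log2 fold changes above 0 and 1 below, with 0 of 5 called. *Srebf2*, on chromosome 15 from 82147181 to 82205379, was at 225, 201 and 216 CPM after PBS and at 240, 226 and 239 CPM after DT. The groups did not overlap, but the lowest DT library was 0.92 CPM above the highest PBS library. The log2 fold change was 0.13 (standard error 0.06, 95% confidence interval -0.01 to 0.28, limma adjusted p = 0.507, Benjamini-Hochberg). *Srebf1* was at 506, 452 and 355 CPM after PBS and at 490, 449 and 449 CPM after DT, the DT libraries lying inside the PBS range. Its log2 fold change was 0.09 (standard error 0.12, limma adjusted p = 0.829). *Scap*, the escort, had 0.04 and *Insig2*, a retention protein, 0.08. *Insig1*, the other retention protein and itself an SREBP target, had -0.18 (standard error 0.09, limma adjusted p = 0.543). The ratio of *Insig1* to *Insig2* in TPM was 8.63 ± 1.05 after PBS and 7.24 ± 0.26 after DT (SD, n = 3 each), and the groups overlapped. That of *Srebf1* to *Srebf2* was 2.17 ± 0.37 and 2.09 ± 0.09 (SD, n = 3 each), also with overlap.

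*Stard4*, a carrier of cholesterol between membranes, was at 15.1, 13.7 and 13.1 CPM after PBS and at 17.0, 13.1 and 16.0 CPM after DT. The groups overlapped, and the log2 fold change was 0.13 (standard error 0.13, limma adjusted p = 0.779, Benjamini-Hochberg). It was read 286 to 456 times per library, near the lowest depth among the 28 genes.

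The 4 fatty acid enzymes were split, with 2 log2 fold changes above and 2 below 0, and 0 of 4 called. *Scd2* was at 3541, 3381 and 3231 CPM after PBS and at 3767, 3291 and 3227 CPM after DT. A DT library was both the highest and the lowest of the 6, and the log2 fold change was 0.02 (standard error 0.08, limma adjusted p = 0.969, Benjamini-Hochberg). *Fasn*, the fatty acid synthase, had -0.02, and *Acaca*, the carboxylase that supplies malonyl-CoA, had 0.01, although 49.1% of its 50-base stretches also occur in another gene. *Scd1*, the paralog of *Scd2*, had -0.11. The ratio of *Scd2* to *Scd1* in TPM was 9.52, 9.78 and 9.85 in the PBS libraries and 10.4, 10.9 and 10.4 in the DT libraries. Here the groups did not overlap, and the exact permutation test, two-sided, gave p = 0.1, below which 3 libraries against 3 cannot go. This was 1 of 3 ratios computed.

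The 28 genes varied together between the libraries of the DT group. DT replicate 1 was the highest of the 3 DT libraries for 28 of the 28 genes, where it was the highest for 5583 of 15135 genes tested with a unique name, or 36.9%. DT replicate 2 was the lowest for 20 of 28, and for 4630 of the 15135 genes. The sterol enzymes lay a median of 0.18 above their DT mean on the log2 scale in DT replicate 1, 0.14 below it in DT replicate 2 and 0.06 below it in DT replicate 3. Medians over all genes were within 0.01 of 0 in these libraries, which scaling to a common library size tends to bring about. In TPM, DT replicate 1 was the highest for 25 of 28 (not for *Ebp*, *Srebf2* and *Scap*), against 26.8% of all genes, and after quantile normalization for 27 of 28 against 39.5%. In CPM, PBS replicate 1 was the highest PBS library for 18 of 28, and for 5327 of the 15135 genes. Among the DT libraries, DT replicate 1 also had the highest sums of choroid plexus (3421 TPM), astrocyte (31145 TPM), oligodendrocyte (518 TPM) and microglial (91.7 TPM) markers. It had the lowest DT sums of neuronal (174 TPM against 312 TPM in each of the others), oligodendrocyte precursor (118 TPM), endothelial (411 TPM) and ependymal (700 TPM) markers. The part of these in the pattern was not tested.

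**Figure D3:**
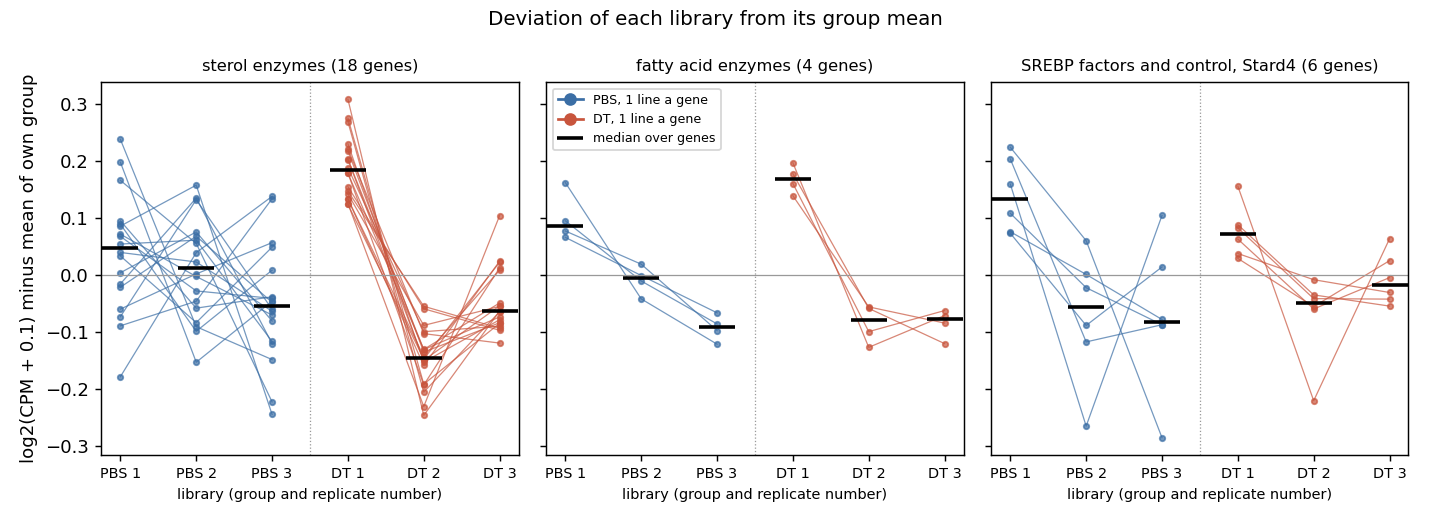
Deviation of each library from the mean of its own group on the log2(CPM + 0.1) scale, with 1 line a gene and a black bar for the median over genes, for the 18 sterol enzymes, the 4 fatty acid enzymes, and the 5 SREBP factors and control genes with *Stard4*. DT replicate 1 lies above its group mean for every gene drawn, with a median of 0.18 in the sterol enzymes.

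Over the 6 libraries, the deviations from the group means had a median Pearson r of 0.71 between pairs of sterol enzymes (153 pairs). It was 0.80 between sterol and fatty acid enzymes (72 pairs), and for all pairs of genes tested it was near 0, at -0.0002. With the sterol enzymes, *Stard4* had a median r of 0.78, *Scap* 0.51, *Srebf1* 0.47, *Insig1* 0.45, *Srebf2* 0.28 and *Insig2* 0.19. The median between the enzymes lay above that with each of the 5 SREBP factors and control genes. All of these share the same 6 libraries and their depth, so they are given as a description.

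The size of the difference in the sterol enzymes moved with the library left out. Without DT replicate 1, the median log2 fold change of the 18 sterol enzymes was -0.20 in place of -0.09, with 17 of 18 below 0. Of the 28 genes, 10 then had an unadjusted p under 0.05 (*Hmgcs1*, *Mvd*, *Idi1*, *Fdps*, *Fdft1*, *Lss*, *Tm7sf2*, *Nsdhl*, *Dhcr7* and *Scd1*), or 35.7%, against 11% of all genes in that fit. None was called, and the smallest adjusted p was 0.264, for *Idi1* (limma, Benjamini-Hochberg). Without DT replicate 2, the median of the sterol enzymes was -0.03, 14 of the 28 genes were below 0, and 0 had an unadjusted p under 0.05, against 8.08% of all genes in that fit. Without DT replicate 3, the median was -0.05, also with 0 of the 28 at an unadjusted p under 0.05, against 7.71% of all genes. The median of the sterol enzymes was -0.09 without PBS replicate 1, -0.08 without PBS replicate 2 and -0.13 without PBS replicate 3.

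**Figure D4:**
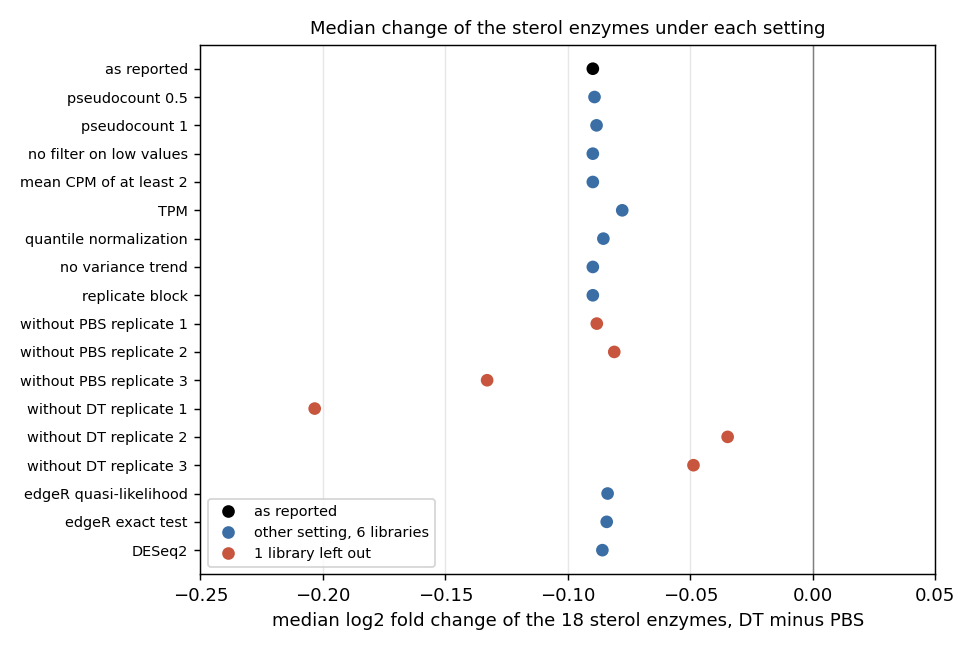
Median log2 fold change of the 18 sterol enzymes, DT minus PBS, as reported (black), under other settings with all 6 libraries (blue) and with 1 library left out (red). It lies between -0.20 without DT replicate 1 and -0.03 without DT replicate 2, and between -0.09 and -0.08 with all 6 libraries.

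The genes called elsewhere are given beside these values. They were picked by their adjusted p, so their smallest change reflects what the fit could detect and is no scale of biological size. The smallest log2 fold change, in size, among the 108 genes called was 0.31, and that of the 28 genes furthest from 0 was the -0.27 of *Nsdhl*. The median standard error of the 28 genes was 0.10, and of all genes with a mean CPM in the same range 0.09.

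Around this route, 50 further genes of 6 lists were read out of the same fit, and of 49 tested 0 were called in either direction, where 0.555% of all genes were called higher and 0.159% lower. The median log2 fold change of the 49 was 0.01, with 27 above and 22 below 0, and 6 had an unadjusted p under 0.05, where 10.4% of all genes had. The groups did not overlap in 8 of the 49, 3 higher and 5 lower after DT, the same share as the 16.3% of all genes. Among genes that supply acetyl-CoA, *Acss2*, the acetyl-CoA synthetase, had the smallest p, with a log2 fold change of -0.23 (limma adjusted p = 0.557, Benjamini-Hochberg). *Fnta*, a prenyltransferase subunit, had the smallest p of the isoprenoid branches, with a log2 fold change of 0.11 (limma adjusted p = 0.645). In SREBP processing the smallest p was that of *Erlin2*, which takes part in the turnover of sterol-regulated proteins. Its log2 fold change was 0.15 (limma adjusted p = 0.466). *Acsl3*, an acyl-CoA synthetase, had the smallest p in fatty acid elongation and activation, with a log2 fold change of -0.23 (limma adjusted p = 0.374). It was at 1678, 1388 and 1530 CPM after PBS and 1346, 1256 and 1311 CPM after DT. *Nr1h3*, which encodes the oxysterol receptor LXR alpha, had the smallest p of its list, with a log2 fold change of 0.25 (limma adjusted p = 0.478). *Cyp27a1*, a sterol 27-hydroxylase, was at 3.22, 2.77 and 2.71 CPM after PBS and at 1.40, 1.85 and 1.40 CPM after DT. In *Acsl3* and *Cyp27a1* the DT libraries lay below all PBS libraries, and in *Erlin2* and *Nr1h3* above them. The log2 fold change of *Cyp27a1* was -0.87 (standard error 0.23, limma adjusted p = 0.215), and its level was low.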

How the data were processed

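RNA-seq of MACS-isolated astrocytes gave 3 PBS and 3 DT libraries (SMARTer Stranded kit). The authors trimmed reads with Trim Galore 0.5.0, mapped them to mm10 with HISAT2 2.1.0, removed rDNA reads with bedtools 2.25.0 and quantified genes with StringTie 1.3.5; the annotation release is not given in the sources used here. The authors deposited TPM and a signal that is CPM relative to TMM-scaled library sizes, where plain CPM had been assumed in the design, plus columns of their own comparison (p-value, q-value and a log2 fold change), which were not used. Read numbers were derived from the spacing of these CPM (100% of values within 0.1 of a whole read). Gene names that had turned into dates numbered 27.

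Genes averaging 0.5 CPM or more were compared on log2(CPM + 0.1) by a two-sided limma test (limma 3.58.1, R 4.3.3) whose variance prior followed expression, and p was adjusted by Benjamini-Hochberg over all genes tested. Fold changes on this scale understate those of low genes. P-values measure the spread between pools. The test was checked on simulated data. Coordinates are from GENCODE M21 and promoters from RefSeq on GRCm38.p6. Values in every library are given for genes whose groups do not overlap or with an unadjusted p under 0.05, and for the gene with the highest TPM in each role; of the 6 further lists, the gene with the smallest p is named. The genes, lists and tests were chosen with earlier results of these data known. Each library was left out in turn, and the comparison was repeated with edgeR 4.0.16, DESeq2 1.42.0, TPM, quantile-normalized values, a flat variance prior, blocking on replicate number, pseudocounts of 0.5 and 1, and filters of 0 and 2 CPM.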

Additional observations from a re-analysis of the deposited data

How the results depend on the processing

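No alternative called any of the 28 genes, so the counts of 0 higher and 0 lower were the same in all 17 alternatives, and of 476 values of single genes under them 450 kept their sign. With all 6 libraries, 6 values changed sign, each near 0. *Cyp51* had a log2 fold change of 0.00943 with TPM, 0.00307 with quantile normalization, 0.0121 with edgeR's quasi-likelihood test, 0.0123 with the exact test and 0.0107 with DESeq2, and *Scd2* had -0.0289 with quantile normalization. With 1 library left out, the log2 fold change changed sign in 12 genes, which ranged as follows over these fits: *Fasn* -0.119 to 0.0605, *Hsd17b7* -0.172 to 0.0225, *Cyp51* -0.138 to 0.0992, *Ebp* -0.00193 to 0.189, *Insig2* -0.0569 to 0.155, *Acaca* -0.0743 to 0.0746, *Pmvk* -0.203 to 0.0304, *Sc5d* -0.107 to 0.0695, *Scd2* -0.0536 to 0.058, *Srebf1* -0.0475 to 0.207, *Mvk* -0.099 to 0.0466 and *Sqle* -0.121 to 0.0139. The number of all genes called moved more, to 35 higher and 11 lower with no variance trend, to 191 and 72 with the exact test and to 227 and 98 with DESeq2. With 1 library left out it was 39 to 72 higher and 9 to 20 lower. The cause was not tested. With the replicate block, 0 of the 28 genes were called, and the smallest adjusted p was 0.198 for *Idi1* (limma, Benjamini-Hochberg). At an unadjusted p under 0.05 there were 6 genes (*Dhcr7*, *Idi1*, *Insig1*, *Msmo1*, *Nsdhl* and *Srebf2*), or 21.4%, against 13.7% of all genes. Same-numbered libraries had correlations of their deviations of 0.115, 0.0105 and 0.118. Replicate 2 had the most reads in both groups, at 32933975 after PBS and 30339811 after DT. Whether same-numbered libraries came from the same experiment cannot be told from these values. The main fit treated them as unpaired, and the replicate block treated them as pairs. With 3 libraries a group, the intervals of the genes read least, such as *Ebp* (285 to 403 reads) from -0.25 to 0.40, leave moderate differences undetectable.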

Other observations

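The values of *Lipa* and *Ch25h*, from the further lists, were picked out after they had been seen. *Lipa*, the lysosomal acid lipase that frees cholesterol from its esters, was at 33.8, 11.2 and 28.4 CPM in the PBS libraries and at 26.3, 12.7 and 26.3 CPM in the DT libraries, so that replicate 2 was the lowest in both groups. *Ch25h*, the cholesterol 25-hydroxylase, was the 1 gene of the 50 pathway genes under the filter, at 0.161 ± 0.205 CPM after PBS and 0.791 ± 0.571 CPM after DT (SD, n = 3 each).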
